A study of Mus musculus with 5 samples.

Results

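The genes described here make, package, take up, break down or sense GABA (gamma-aminobutyric acid) through its metabotropic receptor in the mouse brain. They are the glutamate decarboxylases Gad1 and Gad2, the vesicular transporter Slc32a1, the plasma membrane transporters Slc6a11 and Slc6a13, the transaminase Abat and the GABA-B receptor subunits Gabbr1 and Gabbr2. These 8 genes were listed by name for their roles, by a rule that uses no measured value, out of 47729 genes in the count table. All 8 were found by symbol through their Ensembl identifiers, and all 8 passed the filter on low counts. RNA was taken from right hemispheres of male mice of the inbred strain C57BL/6 that were 5 months old. The 5 libraries form 1 group, with no treatment or genotype to compare. The samples carry different numbers and are called animals here, but the labels do not state that each came from a separate mouse. Any p-value given below reflects variation among these 5 libraries, part or all of which may be technical.

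GABA is the main inhibitory transmitter of the brain. Inhibitory neurons make it from glutamate with glutamate decarboxylase and load it into synaptic vesicles with the transporter encoded by Slc32a1. Transporters of the SLC6 family on neurons and astrocytes clear it from the extracellular space, and GABA transaminase and succinic semialdehyde dehydrogenase then break it down. GABA-B receptors are obligate heterodimers of a Gabbr1 subunit, which binds GABA, and a Gabbr2 subunit, which couples to inhibitory G proteins.

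The members lie on 5 chromosomes of GRCm38. Gad2 (ENSMUSG00000026787, chromosome 2, 22622205 to 22693874), Gad1 (ENSMUSG00000070880, 70553072 to 70602014) and Slc32a1 (ENSMUSG00000037771, 158610767 to 158615748) share chromosome 2, all on the plus strand. Slc6a11 (ENSMUSG00000030307, chromosome 6, 114131241 to 114249952) and Slc6a13 (ENSMUSG00000030108, 121300227 to 121337733) are on the plus strand of chromosome 6. The paralogous transporter gene Slc6a12 begins 5342 bases beyond the end of Slc6a13, with 0 protein-coding genes in the gap. Abat is on the plus strand of chromosome 16 (ENSMUSG00000057880, 8513429 to 8621568), Gabbr1 on the plus strand of chromosome 17 (ENSMUSG00000024462, 37045966 to 37075067) and Gabbr2 on the minus strand of chromosome 4 (ENSMUSG00000039809, 46662305 to 46991873).

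Promoter sequence is shown for Gabbr1 and Slc6a11, the members with the highest levels, and for Slc6a13, the member with the lowest. Each is 120 bases of GRCm38 read 5′ to 3′ on the plus strand from the RefSeq promoter table. The stretches end just before an annotated start and hold no annotated exon base. Capitals mark matches, on either strand, to the letters GGGCGG (the core of a GC box) or CCAAT (the CCAAT box).
Gabbr1, chr17:37045846-37045965: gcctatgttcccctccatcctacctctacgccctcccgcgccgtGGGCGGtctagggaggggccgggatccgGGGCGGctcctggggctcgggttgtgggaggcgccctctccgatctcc
Slc6a11, chr6:114131121-114131240: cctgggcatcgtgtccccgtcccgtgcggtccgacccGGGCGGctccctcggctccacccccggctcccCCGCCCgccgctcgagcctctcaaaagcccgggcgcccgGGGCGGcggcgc
Slc6a13, chr6:121300620-121300739: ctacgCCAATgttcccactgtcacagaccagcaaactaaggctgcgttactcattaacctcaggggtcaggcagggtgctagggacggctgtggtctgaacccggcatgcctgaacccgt

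The stretch of Gabbr1 holds 2 copies of GGGCGG and that of Slc6a11 holds 3, and the stretch before the second annotated start of Slc6a13 holds 1 copy of CCAAT. The window of 250 bases before the first annotated start of Slc6a13, not shown since annotated exons cover part of it, holds 2 copies of GGGCGG, as many as that of Gabbr1. In full windows of 250 bases before the start, the GC share was 66.0% for Gabbr1 and 71.2% for Slc6a11. The 3 windows of Slc6a13 had 60.8%, 51.6% and 49.6%, and the median over all 32851 windows was 52.4%. Gabbr2 had the highest share of the members, 80.8%, and 99.0% of all windows were lower. Exons of any annotated gene cover 120 of the 120 bases nearest the start for Gabbr2 and for Gad2. They cover 87 of these bases for Gad1 and 86 for Slc32a1, so those windows are not upstream sequence alone. GGGCGG was found in a window of 5 of the 7 members with a window, against 32.7% of all windows, and CCAAT in 2, against 33.8%. The core TATAAA was found in 1, Gad1, against 12.4% of all windows, and TGACGTCA (a cAMP response element) in 0, against 1.55%. A member counts once here even where it has several windows, so its chances of a match are higher than those of 1 window, and a match describes letters only.

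Library depth was 13184234 to 15570064 counts. Levels are given as RPKM, counted reads scaled to the exon length of the gene and to library depth. For the 8 genes this length is the union of the exons of all annotated transcripts, which can exceed that of any single transcript. Annotated transcripts number 11 for Gabbr1, 8 for Gad1, 2 for Gad2 and 1 for Slc32a1. Ratios, shares and the order between genes given below hold for this length, and lengths of single transcripts were not tried. Neuronal and glial markers were present at high levels, with the excitatory neuron gene Slc17a7 at 359 to 415 RPKM and the astrocyte glutamate transporter Slc1a2 at 292 to 311 RPKM over the 5 animals. The cerebellar granule cell gene Gabra6 was at 0 to 0.0300 RPKM in animals 1, 2, 3 and 5 and at 1.65 RPKM in animal 4, and the liver gene Alb was at 7.82 RPKM in animal 1 against 0 to 0.740 RPKM in the others. In a bulk sample fewer cells of a type and less RNA per cell cannot be told apart.

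The decarboxylases were both abundant and steady. Gad1 encodes the larger form, which makes most of the GABA in the brain, and Gad2 the smaller, membrane-associated form found mainly in nerve terminals. Gad1 had 57.4, 56.9, 56.0, 54.9 and 57.3 RPKM in animals 1 to 5, from 5766 to 6535 reads. The highest value was in animal 1 and the lowest in animal 4. Gad2 had 50.7, 51.3, 53.8, 52.2 and 51.1 RPKM, from 3962 to 4780 reads, with the highest value in animal 3 and the lowest in animal 1. The genes did not overlap between animals: every Gad1 value lay above every Gad2 value. Gad1 averaged 56.5 ± 1.02 RPKM and Gad2 51.8 ± 1.24 RPKM (SD, n = 5), and Gad1 made up 52.1% ± 0.952 of their sum. The sum had a smaller SD than either part, at 108.3 ± 0.948 RPKM (SD, n = 5).

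Slc32a1, the vesicular GABA and glycine transporter, was somewhat lower than the enzymes that make its substrate. Its values were 44.6, 41.7, 41.6, 44.4 and 40.9 RPKM, from 1507 to 1933 reads, with a mean of 42.6 ± 1.72 RPKM (SD, n = 5). Animals 1 and 4 were higher than the other 3, and all 5 values lay below every value of Gad1 and Gad2. Within animals Slc32a1 was at 0.755-fold of Gad1 (log2 ratio -0.41 ± 0.070, SD, n = 5; exact sign-flip p = 0.0625). This ratio depends on how Slc32a1 is measured. Of its 2797 exon bases, 697 (24.9%) are also exon of the antisense gene Gm14205, which itself had 0 to 1 reads in a library. Whether reads in the shared bases were counted is not given in the sources used here. If they were not, only 2100 bases collected reads, and Slc32a1 would stand at 56.8 ± 2.29 RPKM and at a log2 ratio to Gad1 of 0.0068 ± 0.070 (exact sign-flip p = 0.8125). The place of Slc32a1 relative to Gad1, Gad2 and Abat therefore differs between these counting rules. Its relative spread between animals is the same under both by construction, since the same reads are divided by a shorter length.

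**Figure D1:**
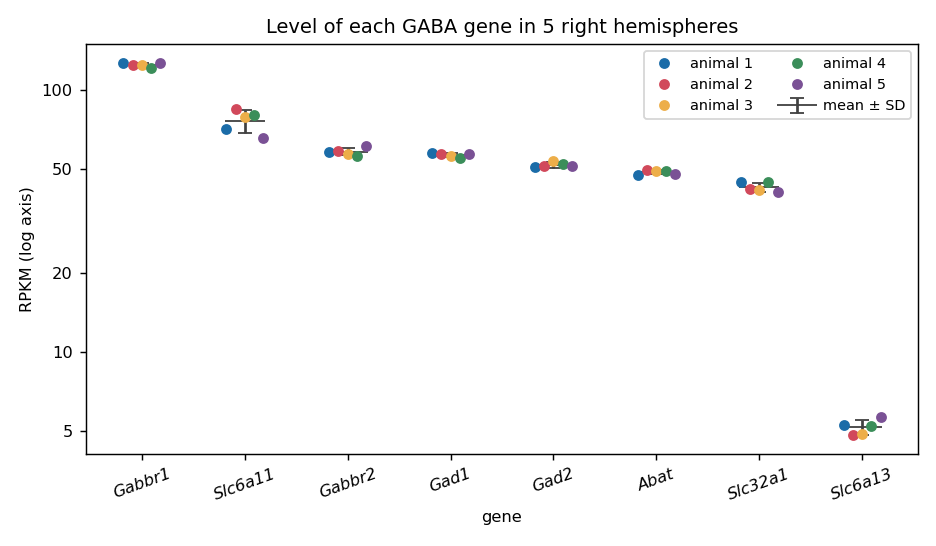
RPKM of each of the 8 genes (log axis), with 1 point per animal, a line at the mean over the 5 animals and a bar of 1 SD. Gabbr1 stands highest at 121.6 to 127.0 RPKM, 6 genes lie between 40.9 and 84.5 RPKM, and Slc6a13 stands apart at 4.84 to 5.64 RPKM.

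The plasma membrane transporters differed the most among themselves, in level and in steadiness. Slc6a11 encodes the GABA transporter found mainly on astrocytes. It had 71.0, 84.5, 78.7, 80.3 and 65.6 RPKM in animals 1 to 5, from 4366 to 6354 reads, with a mean of 76.0 ± 7.63 RPKM (SD, n = 5). Animals 2, 3 and 4 were higher than animals 1 and 5. Slc6a13 encodes a transporter of GABA and taurine known from the meninges and blood vessels of the brain, and from liver and kidney. It had 5.27, 4.84, 4.87, 5.24 and 5.64 RPKM, from 201 to 237 reads, with a mean of 5.17 ± 0.331 RPKM (SD, n = 5). Animal 5, the lowest for Slc6a11, was the highest for Slc6a13, and animal 2 was the highest for Slc6a11 and the lowest for Slc6a13. Within animals Slc6a11 exceeded Slc6a13 by 14.4-fold (log2 ratio 3.85 ± 0.23, SD, n = 5; exact sign-flip p = 0.0625), from 11.4-fold in animal 5 to 17.1-fold in animal 2.

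Slc6a12, which encodes a betaine and GABA transporter and is the neighbour of Slc6a13, was close to the bottom of the measurable range at 0.684 ± 0.178 RPKM (SD, n = 5), from 21 to 40 reads. Transcripts of Slc6a11 share no stretch of 50 bases with another gene and those of Slc6a13 share 0.340% with Slc6a12, so reads are seldom interchangeable between the paralogs.

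Abat encodes GABA transaminase, the mitochondrial enzyme that starts the breakdown of GABA. It had 47.5, 49.7, 49.0, 49.3 and 47.8 RPKM, from 4880 to 5943 reads, with a mean of 48.7 ± 0.973 RPKM (SD, n = 5). Animals 1 and 5 were lower than the other 3. On TMM-scaled CPM, which corrects for library composition, its coefficient of variation was 1.66%, close to the 1.36% that read counting alone gives. Within animals it stood at 0.862-fold of Gad1 (log2 ratio -0.21 ± 0.049, SD, n = 5; exact sign-flip p = 0.0625). Aldh5a1, the succinic semialdehyde dehydrogenase of the next step, averaged 16.3 ± 0.518 RPKM, and Abat exceeded it by 2.98-fold (log2 ratio 1.58 ± 0.031, SD, n = 5; exact sign-flip p = 0.0625). Aldh5a1 also shares exon bases with the genes 4932702P03Rik (796 bases) and 9330162012Rik (203 bases). On the bases of no other gene it would stand at 19.7 ± 0.629 RPKM, still below Abat.

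The GABA-B receptor subunits were among the more abundant genes of the hemisphere. Gabbr1 had 126.9, 124.8, 124.5, 121.6 and 127.0 RPKM, from 12998 to 14697 reads, the highest level of the members and higher than 99.1% of genes with at least 1 count. Gabbr2 had 58.1, 58.3, 57.0, 56.2 and 61.0 RPKM, from 5196 to 5853 reads. By RPKM animal 4 was lowest and animal 5 highest for each subunit, but animals 1 and 5 were nearly level for Gabbr1. On TMM-scaled CPM animal 1 was the highest for Gabbr1 (log2 deviation 0.032, against 0.023 in animal 5). Means were 124.9 ± 2.22 RPKM for Gabbr1 and 58.1 ± 1.82 RPKM for Gabbr2 (SD, n = 5), so Gabbr1 made up 68.3% ± 0.441 of the summed RPKM. The within-animal ratio was 2.18, 2.14, 2.18, 2.16 and 2.08 in animals 1 to 5. Its log2 mean was 1.10 ± 0.029 (SD, n = 5; exact sign-flip p = 0.0625), with a spread of 0.023 given by read counting alone. Gabbr1 is annotated with 11 transcripts and Gabbr2 with 4. The gene-level counts sum over them, so the long and short Gabbr1 isoforms, which start at different promoters, were not told apart.

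Ordered by mean RPKM the members were Gabbr1, Slc6a11, Gabbr2, Gad1, Gad2, Abat, Slc32a1 and Slc6a13. All 28 pairs of members kept the same sign in all 5 animals. For each pair the sign-flip test (exact, two-sided) gave p = 0.0625, the smallest value this test gives with 5 samples, and the same value after Benjamini-Hochberg adjustment over the 30 pairs computed, so no pair could pass 0.05 by this test. The closest neighbours were Gabbr2 and Gad1, 1.03-fold apart (log2 ratio 0.041 ± 0.029, SD, n = 5). Their ranges across animals overlapped, at 56.2 to 61.0 RPKM for Gabbr2 and 54.9 to 57.4 RPKM for Gad1. Gad2 exceeded Abat by 1.07-fold (0.091 ± 0.032) and Abat exceeded Slc32a1 by 1.14-fold (0.19 ± 0.068) as counted over all exon bases. The largest step between neighbours was from Slc32a1 to Slc6a13, 8.11-fold (3.02 ± 0.10). Whether the small steps of 1.03-fold to 1.14-fold would hold with lengths of single transcripts was not tested.

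**Figure D2:**
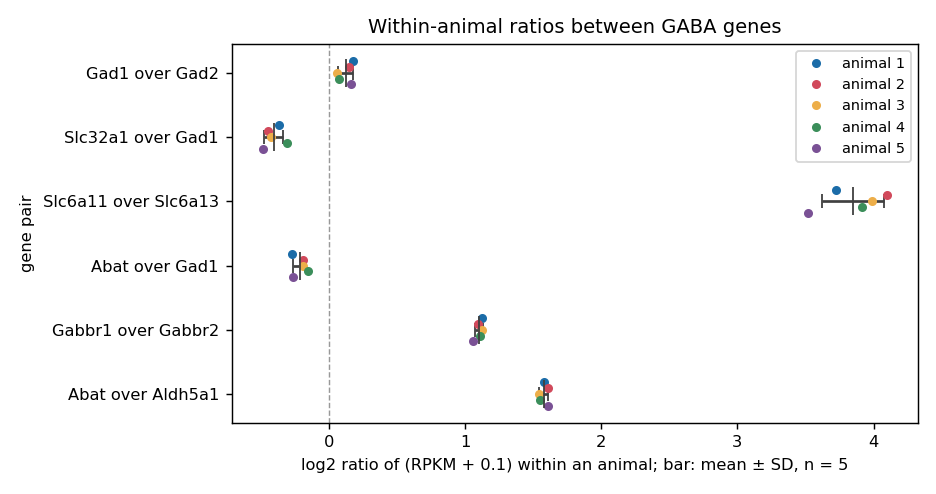
Within-animal log2 ratios of RPKM + 0.1 for 6 gene pairs, with 1 point per animal and a bar for the mean and SD of 5 animals. Gabbr1 over Gabbr2 and Abat over Aldh5a1 have SDs of 0.029 and 0.031, while Slc6a11 over Slc6a13 has an SD of 0.23.

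Some ratios were steadier than others. Gabbr1 over Gad1, genes of different proteins on different chromosomes, was 2.21, 2.19, 2.22, 2.21 and 2.22 in animals 1 to 5. That log2 ratio had an SD of 0.0072, under the 0.022 that read counting alone gives. Of the 28 member pairs, 5 had an SD under their counting error, and since 28 were looked at, the narrowest is described here and not tested. Apart from Gabbr1 over Gad1, each of the 5 holds Slc6a13, whose 201 to 237 reads give a wide counting error of 0.10. The 15 pairs without Slc6a11 or Slc6a13 had SDs from 0.0072 to 0.092 on the log2 scale. The 7 pairs with Slc6a11 had SDs from 0.12 to 0.23.

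To set this spread against that of other genes, each gene's dispersion between the 5 libraries was divided by the value fitted for genes of its abundance, and the ratio was tested over 14770 genes (edgeR quasi-likelihood fit, F distribution, Benjamini-Hochberg adjustment, threshold 0.05). Of the 8 members, 0 were called more variable than the trend, where 0.305% of all genes tested were (45 genes). Without adjustment 1 member, Slc6a11, passed in that direction, against 5.43% of all genes. After adjustment limma also called 0 members. DESeq2 marked 0 members as dispersion outliers, a flag that involves no adjusted p-value. In the other direction edgeR called 0 members steadier, against 0.0% of all genes after adjustment and 5.0% without, where 0 members passed. The median ratio to the trend was 0.503 over the members and 0.875 over all genes tested, and 7 of the 8 members had a ratio below 1, as did 56.6% of all genes. On TMM-scaled CPM, the median range between the highest and lowest animal was 1.08-fold over the members and 1.19-fold over all genes, which are on average less abundant and so carry more counting error.

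Slc6a11 was the member with the widest range, 1.27-fold, where the other 7 lay between 1.03-fold and 1.18-fold. Its log2 deviations from the mean were -0.085, 0.14, 0.064, 0.086 and -0.21 in animals 1 to 5. On the same TMM-scaled CPM its coefficient of variation was 9.68%, against 1.35% from read counting alone, and its ratio to the trend was 6.00. The unadjusted p was 0.00418 and the adjusted p 0.355 (edgeR), and the adjusted p ran from 0.0130 to 0.933 over the alternatives tried. It passed 0.05 in 1 of them, the fit with no filter on low counts. Animal 5 weighed on this: without it the range was 1.17-fold, the ratio to the trend 3.17, the unadjusted p 0.0536 and the adjusted p 0.910. With limma on the deposited RPKM the ratio was 3.13. Of 1011 genes within 2-fold of its abundance, 2.08% had a range at least as wide, and the median range of these genes was 1.10-fold.

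**Figure D3:**
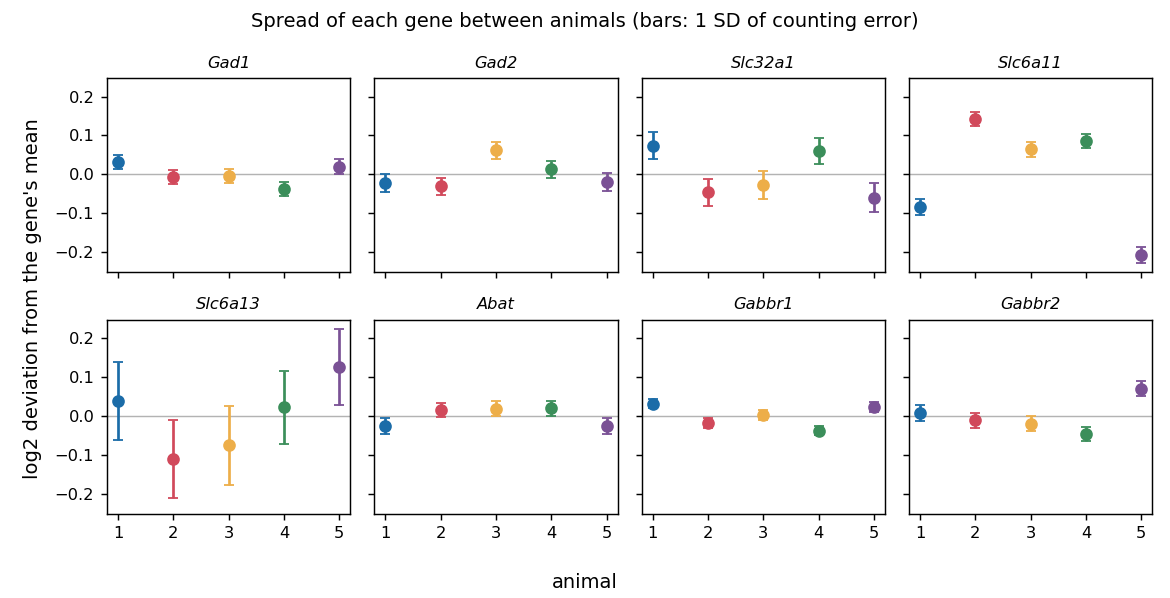
Log2 deviation of each gene from its own mean in animals 1 to 5 (TMM-scaled CPM), with bars of 1 SD of counting error. Slc6a11 spans from -0.21 in animal 5 to 0.14 in animal 2, while the bars of Slc6a13, the member with the fewest reads, span most of its range.

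**Figure D4:**
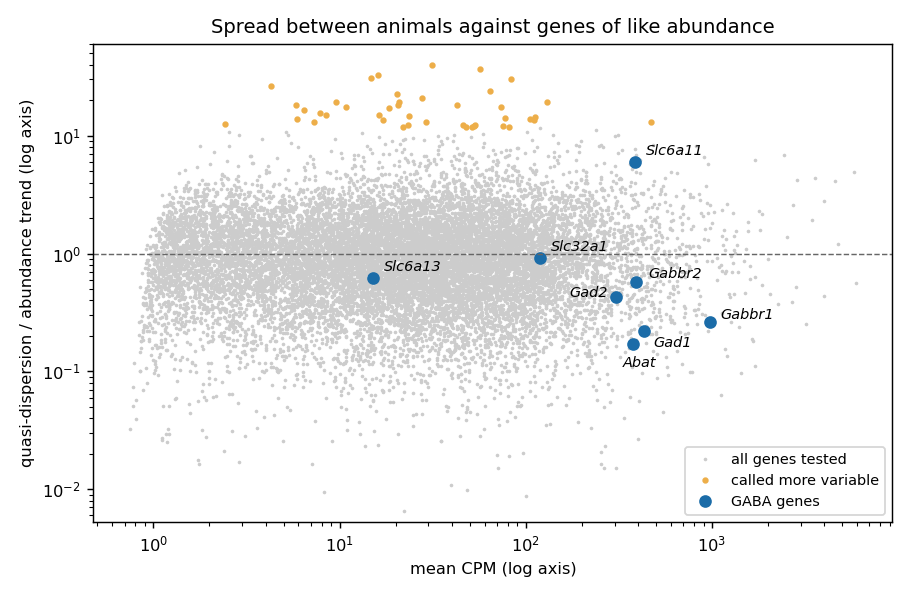
Dispersion between libraries divided by the value fitted at that abundance, against mean CPM (reads scaled to library depth), both on log axes, for all 14770 genes tested with the 45 genes called more variable in yellow and the 8 members in blue. Slc6a11 lies at 6.00 (3.17 without animal 5), and the other 7 members lie between 0.171 (Abat) and 0.917 (Slc32a1).

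Astrocyte and neuronal markers were read beside Slc6a11. Of 10 astrocyte markers 0 were called more variable, against 0.305% of all genes tested. Their summed level was 857, 841, 888, 897 and 835 RPKM in animals 1 to 5. By this sum animal 5 was the lowest, as for Slc6a11, and animals 3 and 4 the highest. Their mean log2 deviation was -0.016, -0.049, 0.037, 0.060 and -0.033, by which animal 2, the highest for Slc6a11, was the lowest. The thalamic and brainstem excitatory marker Slc17a6 had 19.4, 23.2, 21.0, 24.6 and 17.7 RPKM (range 1.39-fold, adjusted p = 0.171, edgeR), and the interneuron calcium-binding protein gene Calb2 had 44.3, 66.2, 51.5, 58.4 and 44.0 RPKM. Both were low in animals 1 and 5 and high in animals 2 and 4, as Slc6a11 was. In animal 3 Slc6a11 also lay above its mean (log2 deviation 0.064), while Calb2 did not (-0.013). The lists that hold Slc17a6 and Calb2 did not follow the pattern of Slc6a11. The mean log2 deviation of the 8 excitatory neuron markers was 0.058, -0.071, 0.015, -0.052 and 0.051 in animals 1 to 5, and that of the 14 GABA neuron subtype markers was 0.098, -0.10, -0.0023, -0.0025 and 0.010. Slc17a6 and Calb2 were picked out after their values were seen, and their part in the spread of Slc6a11 was not tested.

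For Slc6a13, the 12 meningeal fibroblast markers had a summed level of 55.7 to 67.1 RPKM, with 0 at a level of 0. Of these 12 markers 0 were called more variable, against 0.305% of all genes tested. Their mean log2 deviation was 0.084, -0.16, -0.045, -0.0078 and 0.13 in animals 1 to 5, and that of Slc6a13 was 0.039, -0.11, -0.075, 0.022 and 0.13. Animals 1 and 5 were the highest 2 and animals 2 and 3 the lowest 2 for each. Animals 1 and 5 were also the highest 2, and animal 2 the lowest, for the 8 excitatory neuron and 14 GABA neuron subtype markers given above. The same held for the 6 general neuron markers (0.034, -0.061, 0.0081, 0.0052 and 0.014). In these neuron lists animal 4, not animal 3, was the next lowest. The lists of vessel cells did not have animals 1 and 5 highest and animal 2 lowest. The mean log2 deviation of the 6 pericyte and smooth muscle markers was 0.048, 0.054, -0.089, -0.061 and 0.048, highest in animal 2. That of the 6 endothelial markers was 0.0098, 0.0078, 0.0029, 0.021 and -0.042, lowest in animal 5. The coefficient of variation of Slc6a13 on TMM-scaled CPM, 6.63%, did not exceed the 6.84% of read counting. The part of meningeal or vessel cells in its values was not tested.

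The other genes of the pathway were followed as lists, described by counts. Over all genes tested, 0.305% were called more variable and 0.0% steadier. A ratio to the trend below 1 was found for 56.6% of them, and their median range was 1.19-fold. Of 17 further genes of GABA uptake and metabolism, 0 were called more variable and 0 steadier, 8 had a ratio to the trend below 1, and the median range was 1.13-fold. Glul, the glutamine synthetase of astrocytes, was the highest at 362 ± 21.3 RPKM. Of 17 GABA-B receptor partners and effectors, likewise 0 were called in either direction, 6 had a ratio below 1 and the median range was 1.18-fold. The G protein subunit genes Gnb1 (193 ± 3.15 RPKM) and Gnao1 (105.7 ± 2.18 RPKM) led this list (SD, n = 5). Among the KCTD auxiliary subunits, which shape the kinetics of the receptor response, Kctd16 stood at 12.3 ± 0.935 RPKM, Kctd12 at 6.21 ± 0.666 RPKM and Kctd8 at 3.11 ± 0.501 RPKM, all below Gabbr2. Among the inwardly rectifying potassium channel subunits that the receptor opens, Kcnj9 stood at 28.1 ± 1.75 RPKM, Kcnj3 at 17.2 ± 0.917 RPKM and Kcnj6 at 4.38 ± 0.351 RPKM.

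**Figure D5:**
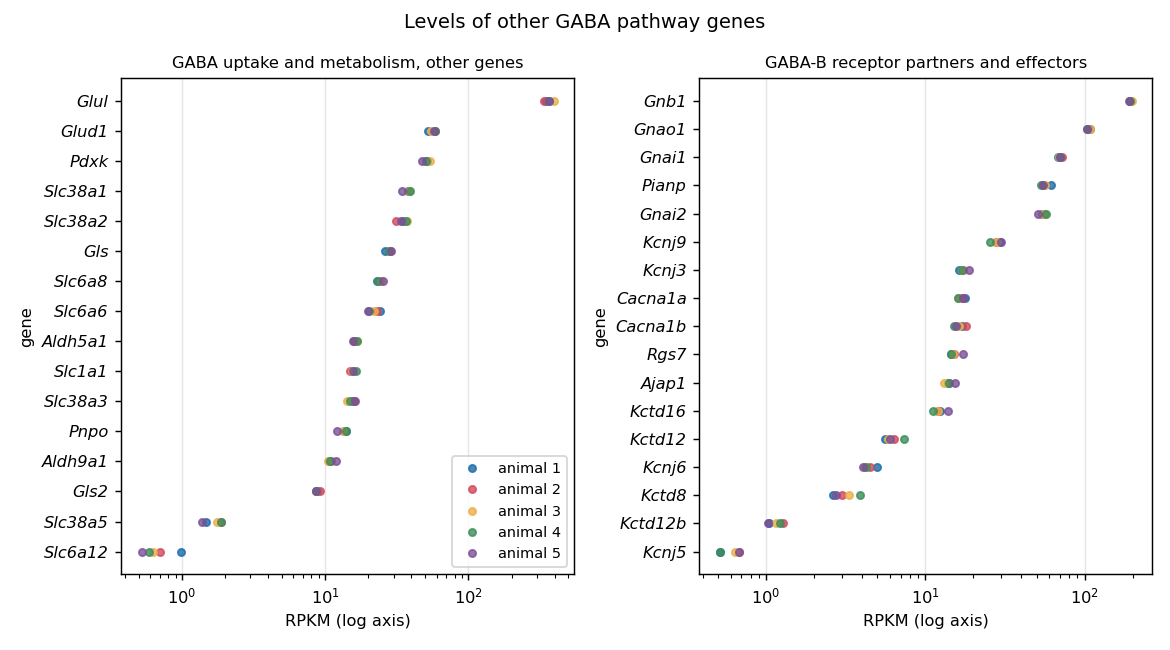
RPKM (log axis) of other genes of GABA uptake and metabolism and of the GABA-B receptor partners and effectors, with 1 point per animal. Glul (362 RPKM) and Gnb1 (193 RPKM) lead their lists, and Slc6a12 (0.684 RPKM) is among the lowest.

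Transcription factors of GABA neurons were far less abundant than the enzymes they are known alongside. Of 14 listed, 0 were called in either direction and the median range was 1.33-fold. A ratio to the trend below 1 was found for 5, against 56.6% of all genes tested. Dlx1 and Dlx6, homeobox genes of forebrain interneurons, led the list at 5.18 ± 0.612 and 3.92 ± 0.421 RPKM (SD, n = 5). Among 14 markers of GABA neuron subtypes, 3 were called more variable, against 0.305% of all genes tested. The 3 were Pvalb, of fast-spiking interneurons (range 1.57-fold), Calb2 (1.49-fold) and Adora2a, of striatal projection neurons (1.59-fold). Each had an adjusted p of 0.0444 (edgeR), and these calls were not followed over the alternatives. Gad1, Gad2 and Slc32a1, which such neurons use in common, had ranges of 1.05-fold, 1.07-fold and 1.10-fold on the same TMM-scaled CPM. Pvalb was highest in animal 4 (62.3 RPKM), where Gad1 was lowest (54.9 RPKM). Adora2a was highest in animal 1 (24.4 RPKM), as was Gad1 (57.4 RPKM). The difference in spread between the subtype markers and the members was not itself tested.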

How the data were processed

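The tools listed in the submitters' processing notes are featureCounts 1.4.6-p4, STAR 2.4.1d and CASAVA 1.7, with the build GRCm38. For the strand setting and annotation release the sources used here give nothing. The authors deposited raw counts per Ensembl gene and RPKM values derived from them. Cycling through the 5 totals from row to row recovered all 117232 nonzero RPKM entries (100.0%), and using each library's own total recovered 21.2%. RPKM printed here was therefore recomputed with own totals and the recovered gene length, which equals the union of GENCODE vM21 exons for all 8 genes. Symbols matched for 47224 of 47729 identifiers.

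The count model was edgeR 4.0.16 (R 4.3.3) with filterByExpr, TMM, an intercept and a robust quasi-likelihood fit. The ratio of each dispersion to its abundance trend was tested against an F distribution with 4 and 15.3 degrees of freedom in each tail. Ratios used log2(RPKM + 0.1) within an animal and an exact sign-flip test over 32 patterns. For range folds, log2 CPM after TMM had a prior count of 2. Differences between libraries exceeded counting noise in all 10 pairs (chi-square per degree of freedom 2.45 to 4.29). Reads carry no molecular identifiers, so depth sets counting error only. Alternatives were DESeq2 1.42.0, limma 3.58.1, no low-count filter, a non-robust prior, other pseudocounts, the deposited RPKM and each library left out.

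The rule for the members uses names only, but members, lists and pairs were all chosen with earlier results of these data known. Genes named are the members, the 2 highest of each pathway list, called genes, pair partners, overlapping genes and at most 2 per marker list. Slc6a12, the Kctd and Kcnj genes, Calb2, Slc17a6, Gabra6 and Alb were named after their values were seen. Promoters are RefSeq sequences on GRCm38.p6, with 7 of 8 members matched. Values of 1 further gene of the pathway lists, and of the pair that holds it, are not reported here.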

Additional observations from a re-analysis of the deposited data

How the results depend on the processing

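The number of genes called more variable than the trend was 45. It was 249 with no low-count filter, 19 with a non-robust prior, 10 by limma from recomputed RPKM, 27 with limma on deposited RPKM, 101 by DESeq2's dispersion outliers and 18 to 44 with each library left out, with 18 without animal 5 and 26 without animal 3. With no low-count filter 1 member was called more variable, Slc6a11 (adjusted p = 0.0130, edgeR), and 25 genes were called steadier, where 0 were otherwise (739 at an unadjusted p under 0.05 by edgeR and 748 by limma). The cause was not tested. The log2 ratio of Slc32a1 over Gad1 turned to 0.0068 on exon bases of no other gene, an alternative chosen after the overlap was seen, by its construction through a shorter length. That alternative placed Slc32a1 between Gabbr2 and Gad1 in the order, and 5 of 7 neighbouring steps then held in every animal. With the deposited RPKM 4 of 7 did, with the same order of means. Over the calls, ratios and order, 102 comparisons of a main value with an alternative were counted as kept, 10 as moved and 1 as reversed. Those kept include the order on exon bases of no other gene, and counts of 30 to 44 genes called more variable against 45. Part of the 102 was fixed in advance: no pair could change side of the threshold, and the union of annotated exons repeats the lengths used. Gad1 over Gad2 on the deposited RPKM was counted as kept, with its sign held in 4 animals (exact sign-flip p = 0.1875). No paired analysis was possible because there is 1 group, so no replicate block links groups; genes were compared within animals. With 5 libraries the exact sign-flip test cannot pass 0.05, and at 201 to 237 reads the spread of Slc6a13 cannot be told from counting error.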

Other observations

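Among 10074 genes with a mean CPM of at least 10, those whose log2 deviations over the 5 libraries lay closest to those of Slc6a11 were Gng4, a G protein gamma subunit gene (root mean square difference 0.0168), Oxsm, a mitochondrial fatty acid synthase gene (0.0172), and Sspn, the sarcospan gene (0.0235). A flat profile lay at 0.128 from Slc6a11. The deviations of Gng4 were -0.099, 0.17, 0.050, 0.077 and -0.20 in animals 1 to 5. Slc6a11 was chosen for this search after its values were seen, the search covered 5 libraries only, and with 10074 candidates some genes lie close to any profile.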
